A study of Mus musculus with 6 samples.

Results

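*Oxt* and *Avp*, the genes for oxytocin and vasopressin, were examined in the hypothalamus of 3 WT and 3 *Fmr1* KO mice. They are 2 of the 787 probes of the count table, where they stand under the hormones' full names, and they were found there by the RefSeq accession of their transcripts. All 6 mice were females of 8 weeks of age, killed in diestrus. The *Fmr1* KO mice carried the Fmr1tm1Cgr allele in every cell on the FVB background, and the WT mice were their congenic controls. The hypothalamus of each mouse was dissected from coronal sections of 500 μm, and 50 ng of RNA per mouse was run in 1 lane of the nCounter assay, which counts colour-coded probes hybridized to RNA without amplification. The panel held neuroinflammation genes together with added probes for hypothalamic peptides and receptors. In what follows the mice are named WT1 to WT3 and KO1 to KO3 by genotype and replicate number. The labels do not say whether mice of 1 genotype came from different litters.

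Oxytocin and vasopressin are closely related short peptide hormones. Each is cut from a larger precursor that also contains a carrier protein, neurophysin, and both are made by large neurosecretory neurons of the paraventricular and supraoptic nuclei, mostly in separate cells. These neurons send axons to the posterior pituitary, where oxytocin is released for milk ejection and the contractions of labour, and vasopressin for water retention by the kidney. Smaller neurons of the paraventricular nucleus and, for vasopressin, of the suprachiasmatic nucleus use the same peptides within the brain. FMRP, the product of *Fmr1*, binds messenger RNAs and regulates their translation.

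The genes are direct neighbours on chromosome 2 of the mouse. The annotation used for names (GRCm38.p6) lists no gene between them, and they are read on opposite strands toward each other. The start regions of both genes are shown here because the genes, although neighbours, are transcribed from separate promoters. Each run holds 250 bases before and 50 bases after the transcription start, 5′ to 3′ on the strand of the gene, as given by RefSeq for GRCm38.p6. Capitals mark matches on either strand to AGGTCA, the half-site of nuclear receptors such as the estrogen receptors, or to TGANTCA, the site of Fos and Jun dimers.

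Oxt, chr2:130575919-130576218, + strand: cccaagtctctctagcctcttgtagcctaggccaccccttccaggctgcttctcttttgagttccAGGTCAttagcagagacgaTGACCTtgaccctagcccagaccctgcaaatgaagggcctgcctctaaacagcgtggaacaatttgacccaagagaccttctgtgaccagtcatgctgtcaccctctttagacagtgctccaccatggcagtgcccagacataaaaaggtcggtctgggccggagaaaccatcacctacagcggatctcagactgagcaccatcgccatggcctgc

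Avp, chr2:130582539-130582838, - strand: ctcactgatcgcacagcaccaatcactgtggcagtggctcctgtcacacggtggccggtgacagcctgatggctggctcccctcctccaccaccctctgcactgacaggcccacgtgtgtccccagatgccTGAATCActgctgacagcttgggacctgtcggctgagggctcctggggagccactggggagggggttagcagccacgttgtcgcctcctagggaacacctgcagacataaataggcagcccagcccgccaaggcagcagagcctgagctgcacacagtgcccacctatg

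The *Oxt* window held AGGTCA at base -185 from the start and its reverse complement, TGACCT, at base -166, and the *Avp* window held neither. Over 32851 windows of this length, 16.3% held at least 1 such half-site and 1.81% held 2 or more. The *Avp* window held TGANTCA once, as TGAATCA at base -119, and the *Oxt* window did not. This motif was found in 7.81% of all windows. TGACG, the half-site of the cAMP response element, and TATAAA were also searched on both strands and were found in neither window, against 20.8% and 13.6% of all windows. The 4 motifs do not overlap in either window, and the matches are a description of letters, not of binding. The *Oxt* probe targets a stretch that begins at base 18 of its transcript, and the *Avp* probe one that begins at base 3.

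Total counts were 165514 to 339934 per lane. The authors' lane factors, which scale each lane to 7 housekeeping genes, were 0.767 to 1.13 in 5 lanes and 1.72 in KO2, the lane with the lowest total. A normalized count is the raw count times this factor. Lanes 1 to 3 held the WT mice and lanes 4 to 6 the *Fmr1* KO mice, and the effects of lane and genotype cannot be told apart. The transcript of *Fmr1* was not analysed here, which leaves the genotype labels unchecked. The pituitary hormone gene *Prl* had 123, 6 and 1626 raw counts in WT1, WT2 and WT3 and 4, 6 and 9 in KO1, KO2 and KO3. The hypothalamic markers fixed for the tissue check, 8 genes such as *Hcrt*, *Agrp* and *Gnrh1*, were all measured, with summed normalized counts of 5540 to 6426 in WT and 4558 to 5504 in *Fmr1* KO mice. *Cartpt* was the largest part of these sums, with 3424 to 3983 in WT and 2220 to 2609 in *Fmr1* KO mice. The other 7 genes summed to 2076 to 2443 and 2055 to 3129. Of these, *Hcrt* had 669, 522 and 564 normalized counts in WT1 to WT3 and 595, 378 and 1384 in KO1 to KO3. KO3 was also the mouse with the highest *Avp*, and a link between the 2 levels was not tested.

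The mean *Oxt* level of *Fmr1* KO hypothalami was 1.72 times that of WT, and the mean *Avp* level was 1.80 times that of WT, but neither difference passed the threshold once p-values were adjusted over all tested probes. *Oxt* levels of the 2 genotypes did not overlap, by a small margin. *Avp* levels did overlap, since 1 *Fmr1* KO mouse lay within the WT range. In bulk tissue, more RNA per cell and more cells of a type cannot be told apart.

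For *Oxt*, WT1, WT2 and WT3 had 1794, 3335 and 2483 normalized counts (1913, 3346 and 2693 raw counts), a mean of 2537 ± 772 (SD, n = 3). KO1, KO2 and KO3 had 5202, 3443 and 4454 normalized counts (6785, 2006 and 3956 raw counts), a mean of 4366 ± 882 (SD, n = 3). All *Fmr1* KO mice exceeded all WT mice, and the gap between the genotypes lay between WT2 and KO2. The 95% counting intervals of these 2 mice, 3223 to 3450 and 3294 to 3597, overlapped, so that their order was within counting error. Of the 601 probes tested, 6.82% had non-overlapping groups with all *Fmr1* KO mice higher. The separation of *Oxt* also depended on the lane factors. With TMM scaling the lowest *Fmr1* KO mouse had 0.949 times the level of the highest WT mouse, with median-ratio scaling 0.927 times, and with the total count of the lane less both genes 0.946 times.

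The log2 fold change of *Oxt* was 0.79 (standard error 0.20, 95% interval 0.35 to 1.22), a 1.72-fold difference with an interval of 1.27 to 2.33. The unadjusted p was 0.00223 from edgeR's quasi-likelihood test, the 8th smallest of 601, and the adjusted p was 0.166. For comparison, 5.66% of the tested probes were higher in *Fmr1* KO mice at an unadjusted p under 0.05, and 0.499% at an adjusted p under 0.05. Neither *Oxt* nor *Avp* was among the latter, although both were among the former. These edgeR values rest on a spread between mice that is drawn toward that of all tested probes. The test named in the paper's methods has no such step. Its unadjusted p was 0.0602 on log2 and 0.0540 on linear values for *Oxt*, and 0.148 and 0.182 for *Avp*. All other fits with all 6 mice kept an unadjusted p under 0.05 for both genes.

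For *Avp*, WT1, WT2 and WT3 had 3152, 2799 and 3690 normalized counts (3360, 2808 and 4003 raw counts), a mean of 3214 ± 449 (SD, n = 3). KO1, KO2 and KO3 had 5295, 3332 and 8701 normalized counts (6907, 1941 and 7728 raw counts), a mean of 5776 ± 2717 (SD, n = 3). KO1 and KO3 were above all WT mice, whereas KO2 lay between WT1 and WT3. Of 9 pairs of 1 *Fmr1* KO and 1 WT mouse, the *Fmr1* KO mouse was higher in 8. The log2 fold change was 0.85 (standard error 0.26, 95% interval 0.28 to 1.42), a 1.80-fold difference with an interval of 1.21 to 2.68. Its unadjusted p was 0.00766 from edgeR, the 15th smallest, and its adjusted p was 0.306.

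**Figure D1:**
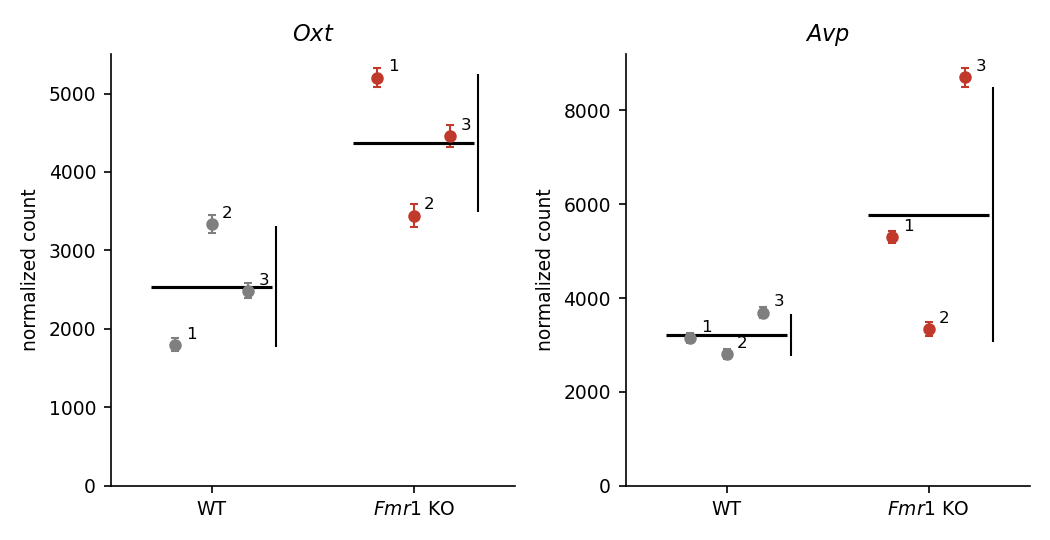
Normalized counts of *Oxt* (left) and *Avp* (right) in each mouse, numbered by replicate. Error bars on points are 95% counting intervals, thick lines are group means, and vertical lines at their right are ± 1 SD (n = 3). All *Fmr1* KO mice were above all WT mice for *Oxt*, and for *Avp* 1 *Fmr1* KO mouse with 3332 normalized counts lay among the WT mice.

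The mice ranked differently for the 2 genes. From low to high *Oxt*, the order was WT1, WT3 and WT2, then KO2, KO3 and KO1. From low to high *Avp*, it was WT2 and WT1, KO2, WT3, then KO1 and KO3. WT1 and KO2, neighbours in the *Avp* order, had overlapping counting intervals (3046 to 3260 and 3185 to 3483). WT2 thus had the highest *Oxt* and the lowest *Avp* of its group. Over the 6 mice, log2 levels of both genes had a Pearson r of 0.63 (exact permutation p = 0.190) and a Spearman rho of 0.66 (exact permutation p = 0.175), the only relation between genes that was tested, so no adjustment applied. Without KO1 and KO3, the mice farthest from the median *Avp* level, r was -0.23, but these mice were picked for extreme values, which narrows the range. Without KO1 alone r was 0.60, and without KO3 alone it was 0.62. As deviations from the mean of each genotype, r was 0.23.

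The ratio of *Oxt* to *Avp* in 1 lane does not depend on the lane factor. The level of the ratio itself includes the efficiency of both probes, so that only differences between mice were compared. It was 0.569, 1.19 and 0.673 in WT1, WT2 and WT3, and 0.982, 1.03 and 0.512 in KO1, KO2 and KO3. The ratio was near or above 1 in WT2 and KO1 and KO2 and near 0.5 to 0.7 in the other mice, and the genotypes overlapped over almost their whole range. The counting intervals were narrow beside these differences, such as 0.538 to 0.602 in WT1 and 1.13 to 1.25 in WT2. The mean log2 ratio was -0.38 ± 0.56 for WT and -0.31 ± 0.57 for *Fmr1* KO mice (SD over 3 mice), a difference of 0.06 (two-sided exact permutation p = 1, where 3 against 3 mice cannot give less than 0.1). The single differences between a *Fmr1* KO and a WT mouse ran from -1.22 to 0.86 on the log2 scale. The direction of the mean difference changed when 1 of 4 mice was left out, with values of -0.16 to 0.39 over all 6 omissions.

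**Figure D2:**
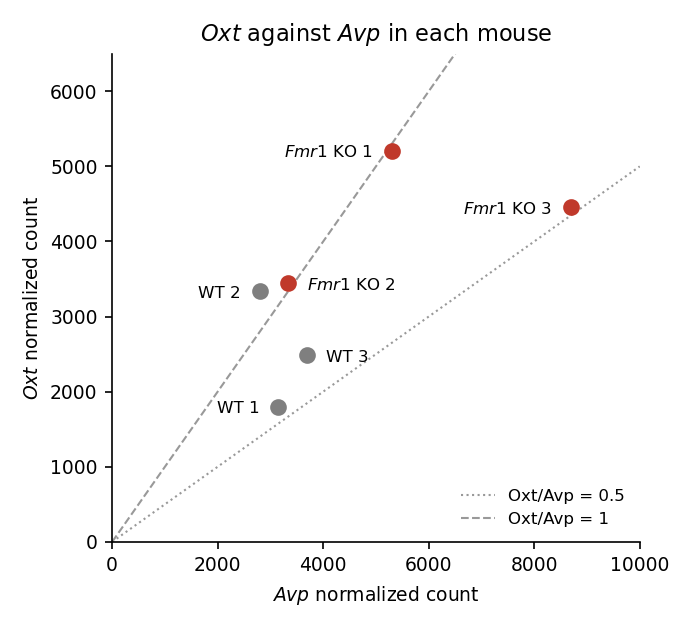
*Oxt* against *Avp* normalized counts, 1 point per mouse (grey, WT, and red, *Fmr1* KO), with lines where the ratio of both counts is 1 (dashed) and 0.5 (dotted). Mice of both genotypes lay near each line: KO1 and KO2 had ratios of 0.982 and 1.03, and KO3 and WT1 had ratios of 0.512 and 0.569.

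Taking the 2 genes as a sum, WT1, WT2 and WT3 had 4946, 6134 and 6173 normalized counts and KO1, KO2 and KO3 had 10497, 6775 and 13156. The 2 genotypes did not overlap, and the lowest *Fmr1* KO sum was 1.10 times the highest WT sum. With median-ratio scaling this order did not hold, since the lowest *Fmr1* KO sum was 6174 and the highest WT sum 6227. The sum is given as a description with no test.

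Both genes varied more between mice of 1 genotype than most of the panel. The pooled standard deviation within genotypes was 0.38 for *Oxt* and 0.51 for *Avp* on the log2 scale, against a median of 0.17 over the 601 tested probes. Of these probes, 91.2% had a lower value than *Oxt* and 97.5% a lower value than *Avp*. Counting error was small beside this spread, at 1.14% to 2.29% of the count in single lanes. Between mice, the coefficient of variation of *Oxt* was 30.4% in WT and 20.2% in *Fmr1* KO mice, and that of *Avp* was 14.0% and 47.0%. The highest *Avp* level in *Fmr1* KO mice was 2.61 times the lowest, against 1.32 times in WT mice. Whether the spread itself differed by genotype was not tested. Other genes with a high spread were *Slc17a7*, a glutamate transporter of cortical neurons, at 0.77, *Ttr*, made by the choroid plexus, at 0.76, and *Hcrt*, the orexin gene of the lateral hypothalamus, at 0.68. These 3 genes were chosen after their values were seen. *Ttr* had only 6 to 24 raw counts per lane, near the mean of the 84 lowest probes (6.08 to 9.24). Its spread therefore includes more counting error than that of *Oxt* and *Avp*.

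**Figure D3:**
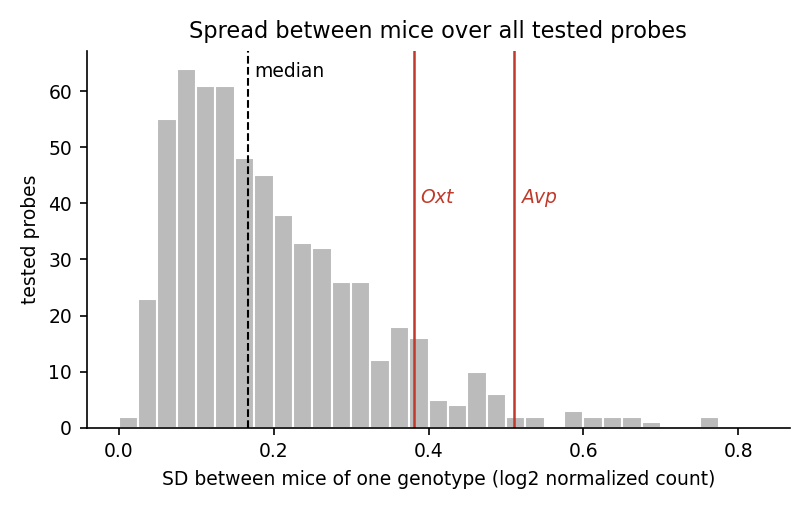
Number of tested probes (y) by the standard deviation between mice of 1 genotype on the log2 scale of normalized counts (x). *Oxt* at 0.38 and *Avp* at 0.51 (red lines) lay in the upper tail, and the dashed line marks the median of 0.17.

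Among the alternatives, the log2 fold changes of both genes stayed above 0. With all 6 mice, *Oxt* ranged from 0.76 to 0.81 and *Avp* from 0.74 to 0.85. The adjusted p stayed above 0.05 with all 6 mice, in DESeq2 at 0.313 for *Oxt* and 0.743 for *Avp*. Single mice moved the values more. Without WT2 *Oxt* had a log2 fold change of 1.03 (adjusted p = 0.0110 from edgeR), and without WT1 it was 0.59 (adjusted p = 0.368 from edgeR). Without KO2, *Oxt* was at 0.93 (adjusted p = 0.0452 from edgeR) and *Avp* at 1.12 (adjusted p = 0.0108 from edgeR). WT2 was the highest WT mouse for *Oxt*, and KO2 the lowest *Fmr1* KO mouse for both genes. Leaving them out therefore had to widen the difference, and these fits add no support for it. Without KO3, the mouse with the highest *Avp*, the log2 fold change of *Avp* was 0.43 (adjusted p = 0.626 from edgeR).

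**Figure D4:**
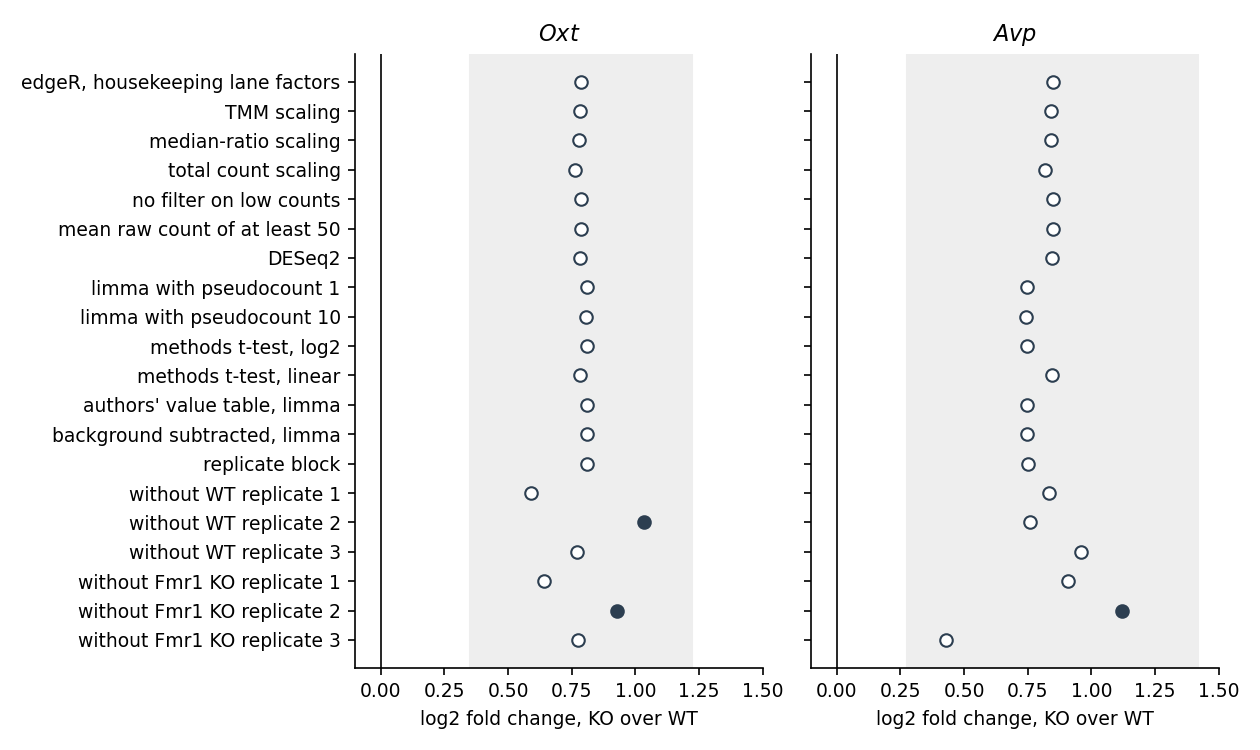
Log2 fold change of *Fmr1* KO over WT (x) for *Oxt* (left) and *Avp* (right) under each scaling, filter, test or set of mice (rows). Filled points had an adjusted p under 0.05, and the grey band is the 95% interval of the fit in the first row. All points lay above 0, and only fits without WT2 (*Oxt*) or KO2 (both genes) gave filled points.

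Peptide and transmitter genes that are also used by neurons of the paraventricular or supraoptic nucleus mostly had log2 fold changes below 0, unlike *Oxt* and *Avp*. Of those measured, only *Trh* was above 0. Of 11 listed genes 7 were measured and tested, and *Cartpt* alone passed the adjusted threshold and was lower, whereas 0.333% of all tested probes were lower at that threshold. Over the 7 genes, the median log2 fold change was -0.16, against 0.01 over all tested probes. *Trh*, encoding thyrotropin-releasing hormone, which is made by small neurons of the paraventricular nucleus, had normalized counts of 867, 830 and 840 in WT1 to WT3 and of 1161, 908 and 1137 in KO1 to KO3. With the authors' lane factors its groups did not overlap, which held for 6.82% of all tested probes with *Fmr1* KO mice higher. The lowest *Fmr1* KO level was that of KO2, with 529 raw counts and the factor of 1.72. Whether the groups stay apart under other scalings was not examined for this gene. The log2 fold change of *Trh* was 0.34 (standard error 0.09), and the adjusted p was 0.166 from edgeR. *Cartpt*, encoding the CART peptide that is found in magnocellular neurons and in the arcuate nucleus, had a log2 fold change of -0.63 (adjusted p = 0.00375 from edgeR). *Adcyap1*, encoding PACAP, had a log2 fold change of -0.34 (adjusted p = 0.166 from edgeR) and *Slc17a6*, the vesicular glutamate transporter of many hypothalamic neurons, one of -0.08 (adjusted p = 0.787 from edgeR).

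*Pdyn*, encoding prodynorphin, whose peptides are stored with vasopressin in magnocellular neurons, is another of these listed genes. It was chosen to be described after its values were seen. It had 512, 424 and 395 normalized counts in WT1, WT2 and WT3 and 386, 400 and 510 in KO1, KO2 and KO3. The groups overlapped, and the log2 fold change of -0.04 had a standard error of 0.13 and an adjusted p of 0.978 from edgeR. KO3 had the highest *Pdyn* of its group as well as the highest *Avp*. In WT mice this did not hold, since WT3 had the highest *Avp* and the lowest *Pdyn* of its group. WT1 had the highest *Pdyn* of all mice. None of 18 listed genes for receptors, processing enzymes and regulators of the 2 hormones was among the probes used, and they were not analysed here.

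Of 9 listed genes of other hypothalamic nuclei, all of them tested, *Tac2* was lower at the adjusted threshold (0.333% of all tested probes) and none was higher (0.499%), and the median log2 fold change was -0.03. *Gnrh1*, encoding the releasing hormone of gonadotropins, stood nearest to *Oxt* and *Avp* in size, at 0.86 on the log2 scale (standard error 0.18) and an adjusted p of 0.0735 from edgeR. *Hdc*, encoding the enzyme of histamine synthesis, was at -0.67 and *Pomc*, the melanocortin precursor gene, at -0.59 (adjusted p = 0.166 from edgeR for both). Over the 601 tested probes, 7 had a higher log2 fold change than *Oxt* and 4 a higher one than *Avp*.

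**Figure D5:**
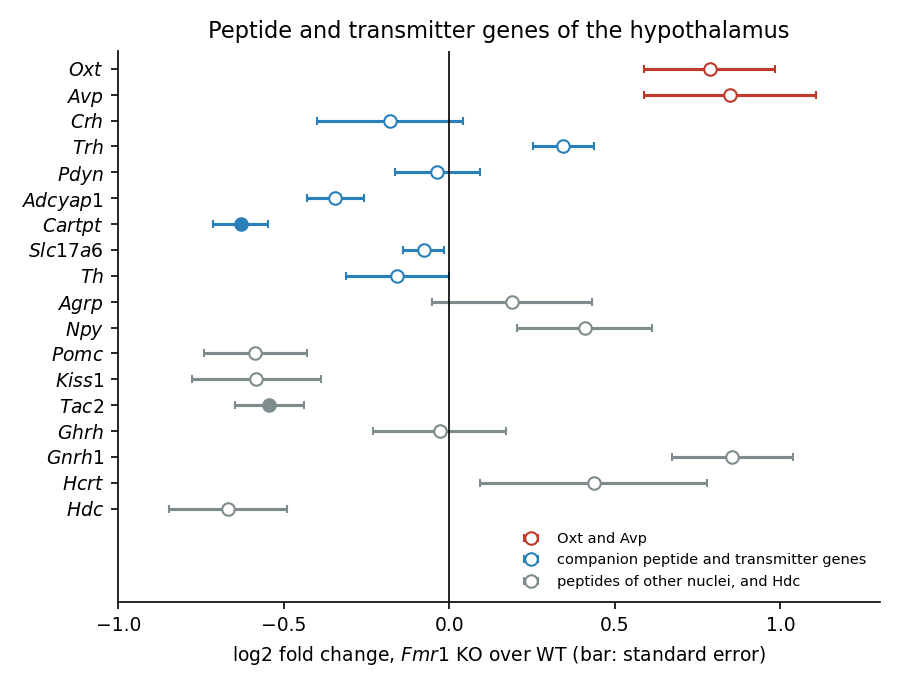
Log2 fold change of *Fmr1* KO over WT with its standard error (x) for *Oxt* and *Avp* (red), 7 companion genes (blue) and 9 genes of other nuclei (grey). Filled points passed an adjusted p under 0.05, which *Cartpt* and *Tac2* did. *Oxt* at 0.79 and *Avp* at 0.85 lay far to the right beside *Gnrh1* at 0.86.

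Markers of neighbouring tissue and other cell types were read beside both genes. Of 2 measured markers of cortex and hippocampus, *Slc17a7* had normalized counts of 86.3, 185 and 204 in WT1 to WT3 and of 296, 151 and 90.1 in KO1 to KO3. *Tbr1* had normalized counts of 22.5, 23.9 and 29.5 in WT1 to WT3 and of 37.6, 63.5 and 41.7 in KO1 to KO3. *Tbr1* was thus higher in each *Fmr1* KO mouse than in any WT mouse, as was *Oxt*, a separation found in 6.82% of the tested probes. The *Tbr1* levels rested on 24, 24 and 32 raw counts in WT1 to WT3 and 49, 37 and 37 in KO1 to KO3. The mean of the 84 lowest probes was 6.08 to 9.24 counts. The choroid plexus gene *Ttr* had 5.98 to 22.5 normalized counts in WT and 15.8 to 36.0 in *Fmr1* KO mice. Of 4 listed pituitary markers, *Prl* and *Pomc* were measured, and *Prl* had at most 9 raw counts in *Fmr1* KO mice. *Pomc* had normalized counts of 569, 439 and 471 in WT1 to WT3 and of 305, 426 and 268 in KO1 to KO3. Summed over 5 measured neuronal markers, normalized counts were 8203 to 8932 in WT and 8802 to 9108 in *Fmr1* KO mice. The 4 oligodendrocyte markers summed to 8370 to 13206 in WT and 11331 to 16559 in *Fmr1* KO mice, and 2 of 4 astrocyte markers, *Slc1a3* and *Gja1*, to 6994 to 7399 and 6059 to 6526. Of the oligodendrocyte markers *Opalin*, a myelin membrane protein gene, passed the adjusted threshold. It had normalized counts of 84.4, 76.7 and 120 in WT1 to WT3 and of 182, 201 and 256 in KO1 to KO3, with a log2 fold change of 1.18 (adjusted p = 0.0136 from edgeR). The part of these tissues and cells in the *Oxt* and *Avp* levels was not tested.

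The genes whose levels followed *Oxt* most closely over the 6 mice, by Pearson r of log2 normalized counts, were *Syn2*, encoding a synaptic vesicle protein (0.93), *Fos*, an immediate early gene (0.92), *Tm4sf1*, a membrane protein gene (0.90), *Dlx2*, a homeobox gene (0.89), and *Clstn1*, encoding the synaptic membrane protein calsyntenin (0.88). *Fos* had 239, 341 and 211 normalized counts in WT1, WT2 and WT3 and 562, 431 and 492 in KO1, KO2 and KO3. WT2 was thus the highest WT mouse and KO1 the highest *Fmr1* KO mouse for *Fos* as for *Oxt*, whereas the range of *Syn2* was only 1789 to 2006. *Avp* ranked as the 32nd gene by this measure.

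For *Avp* the closest genes were *Mmp14*, encoding a membrane-bound metalloproteinase (0.88), *Trh* (0.88), *Srgn*, encoding the proteoglycan serglycin (0.84), *Pmp22*, a myelin protein gene (0.83), and the ribosomal protein gene *Rpl29* (0.83). *Mmp14* had normalized counts of 60.0, 57.8 and 59.0 in WT1 to WT3 and of 73.6, 75.5 and 100.2 in KO1 to KO3, so KO3 was the highest mouse for this gene too. *Rpl29* ranged only from 1888 to 2006. *Oxt* ranked as the 44th gene for *Avp*. Where genotypes differ for both genes, the difference itself raises r, and as deviations from the genotype mean r was 0.77 for *Oxt* with *Fos* and 0.78 for *Avp* with *Trh*. These values were picked as the highest of all tested probes and describe 6 mice.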

How the data were processed

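Hypothalamic RNA of 3 WT and 3 *Fmr1* KO mice was counted with the nCounter assay. The deposited raw counts of 787 probes per lane were not normalized. The deposited percent of lanes above the authors' threshold was not used. In the authors' value table the signal is the raw count times 1 factor per lane, based on 7 housekeeping genes per the methods, and the factors were recovered from both tables. For 786 probes all values lay within 0.01 of that product, as a share of the value. Probes were named by RefSeq accession (772) or the table's symbol (15), from GRCm38.p6. No lanes of 1 genotype agreed within sampling noise (chi-square over degrees of freedom of at least 2.72).

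Probes with a count above 20 in at least 3 of 6 lanes (601) were fitted with edgeR 4.0.16 in R 4.3.3 (glmQLFit, glmQLFTest), with lane sizes set from the recovered factors and Benjamini-Hochberg adjustment over these probes. The standard error is the log2 fold change over the square root of F. Counting intervals are exact Poisson intervals and cover counting error only, except for ratios, where a log-normal approximation was used. The ratio of *Oxt* to *Avp* was tested by an exact permutation test (scipy 1.17.1). The fit was first tested on simulated counts.

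Alternatives were TMM, median-ratio or total count scaling (the total without *Oxt* and *Avp*), other filters, DESeq2 1.42.0, limma 3.58.1 with pseudocounts of 1 and 10, the methods' t-test, the value table, subtraction of the mean of the 84 lowest probes, the replicate block, and omission of each mouse. Genes named are *Oxt* and *Avp*, the 5 genes most like each, and listed genes that passed or had the 4 smallest p of a peptide list. The listed genes *Pdyn*, *Crh* and *Th* were named after their values were seen. Marker genes are given as levels. The members and lists were chosen with earlier results of these data known. P-values refer to these mice only. Those of edgeR rest on a spread between mice that is drawn toward that of the tested probes as a whole.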

Additional observations from a re-analysis of the deposited data

How the results depend on the processing

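The log2 fold changes of *Oxt* and *Avp* kept their direction in all 19 alternatives, and the adjusted threshold was passed in 2 of them for *Oxt* and in 1 for *Avp*. Leaving out 1 mouse gave log2 fold changes of 0.59 to 1.03 for *Oxt* and 0.43 to 1.12 for *Avp*, with adjusted p of 0.0110 to 0.455 and 0.0108 to 0.793 from edgeR. *Oxt* passed without WT2 (log2 fold change 1.03) or KO2 (0.93), and *Avp* without KO2 (1.12). In each case the mouse left out was the one of its group nearest the other genotype. The difference in the log2 ratio of *Oxt* to *Avp*, 0.06, was -0.16 without WT1, -0.03 without WT3, -0.08 without KO1 and -0.12 without KO2, and up to 0.39 in the other omissions. The cause was not tested. The r between both genes was 0.60 to 0.73 when 1 mouse was left out.

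The number of probes called, 5 of 601, was 3 when probes had to reach a mean raw count of 50, 0 with the methods' t-test on log2 or linear values (45 and 43 probes had an unadjusted p under 0.05 there, against 51 in edgeR and 34 in DESeq2, and DESeq2 called 7), and 2 to 11 when 1 mouse was left out (2 without WT1, 5 without WT2, 11 without WT3, 3 without KO1, 10 without KO2 and 2 without KO3). With the replicate block it was 3, and the log2 fold changes were 0.81 for *Oxt* (adjusted p = 0.193 from edgeR) and 0.75 for *Avp* (adjusted p = 0.0806 from edgeR). The labels name nothing but the number that mice with the same number share. Their deviations from the genotype mean correlated at -0.06, -0.08 and 0.10, and those of other pairs at -0.17 to 0.23. As deviations cancel within each genotype, these values cannot settle whether such mice shared anything more. The lowest count of either gene in a lane was 1913 for *Oxt* and 1941 for *Avp*, and counting error was small beside the spread between mice.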
